A study of Homo sapiens with 82 samples.

Results

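The 10 genes described here are FGF21 and 9 genes of the integrated stress response, namely ATF4, DDIT3, TRIB3, CHAC1, PPP1R15A, ASNS, PSAT1, SESN2 and DDIT4. They were taken by symbol from the gene count tables, in which each symbol had 1 row of 51838 rows in all. RNA was sequenced from HT29 cells, an established human colorectal cancer line, in 32 libraries that form 8 groups of 4. The groups were DMSO, the vehicle, and 10 μM of GW3965, T0901317 or rosiglitazone, each given for 24 or 48 h beside vehicle libraries of the same time. GW3965 and T0901317 are synthetic agonists of the liver X receptors (LXRs), which sense oxysterols, and rosiglitazone is an agonist of the fatty acid sensor PPARG. All groups were grown beforehand in phenol-red free medium with charcoal-treated serum, and all come from this 1 cell line. The methods describe treatments done in quadruplicate, while neither they nor the labels say whether these were separately grown cultures, so every p-value measures the spread between these libraries, which may be technical. Which of the genes changed with each drug, in which direction and at which time point, was the question put to the 8 groups.

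The integrated stress response is a pathway in which several kinases, each tuned to a different stress such as amino acid shortage or misfolded protein, phosphorylate the translation factor eIF2. General translation then drops while the transcription factor ATF4 is translated more, and ATF4 with its partners raises genes for amino acid supply, redox balance and, under lasting stress, cell death. FGF21 is a secreted hormone best known from liver, where fasting through PPARA and cell stress through ATF4 both raise it, and it is also listed among the outputs of this pathway in other stressed cells.

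Total counts ran from 21044798 to 51332656 per library. Levels are given as CPM, the usual expression of a count relative to the library total, here scaled by the trimmed mean of M-values (TMM) over all 32 libraries, and they are compared between groups for 1 gene, never between genes, because transcript lengths were not used. The colon epithelial markers EPCAM, CDH1, KRT8, KRT18, KRT20 and VIL1 had lowest group means from 73.2 CPM (VIL1) to 7551 CPM (KRT8), while CDX2 lay between 6.83 and 18.997 CPM and CDX1 between 0.824 and 3.504 CPM. Of markers of other cell types, PTPRC, CD3E, COL1A2 and ALB stayed at or below 0.0412 CPM in all group means, and COL1A1 lay between 3.04 and 8.07 CPM. Several epithelial markers moved with the drugs, on the log2 scale against DMSO. At 24 h KRT20 rose with GW3965 (0.83) and T0901317 (0.42), and with rosiglitazone KRT20 (1.38), CDH1 (0.32) and KRT8 (0.19) rose while VIL1 fell (-0.52). At 48 h CDX1, VIL1 and CDX2 rose with GW3965 (1.05, 0.72 and 0.49) and T0901317 (0.85, 0.66 and 0.51) and fell with rosiglitazone (-1.03, -1.004 and -0.67). Also at 48 h, KRT20 rose with GW3965 (0.43) and rosiglitazone (1.75), CDH1 rose with rosiglitazone (0.52), KRT18 and KRT8 fell with T0901317 (-0.30 and -0.21) and COL1A1 rose with GW3965 (0.53). The part of these markers in the results was not tested.

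ATF4 acts together with C/EBP proteins at a composite sequence, the C/EBP-ATF response element, which was searched for as TGATGNAA on both strands of the RefSeq promoters (GRCh38.p14, 250 bases before to 50 bases after each start). All 10 genes were in the table, with 15 promoters. The element was found at 3 of the 10 genes (30.0%), against 1217 of 27305 genes in the whole table (4.46%). Counted by promoter it was found at 3 of 15 (20.0%), against 1270 of 35116 (3.62%). The 100 bases around each match are shown because they are the places in these promoters where the letters of this element stand, and the capitals mark the match. The ASNS window is chr7:97872423-97872522 on the minus strand, with the match on the strand of the gene 68 bases before the start. The windows of CHAC1, chr15:40953221-40953320, and of FGF21, chr19:48755424-48755523, are on the plus strand, with the match read on the opposite strand and beginning 209 and 54 bases before the start. Each window is printed 5′ to 3′ on the strand of its gene.
ASNS: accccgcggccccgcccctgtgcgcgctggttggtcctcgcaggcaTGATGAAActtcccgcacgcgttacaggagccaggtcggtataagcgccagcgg
CHAC1: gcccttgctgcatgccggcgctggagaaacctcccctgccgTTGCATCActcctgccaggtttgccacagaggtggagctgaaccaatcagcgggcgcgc
FGF21: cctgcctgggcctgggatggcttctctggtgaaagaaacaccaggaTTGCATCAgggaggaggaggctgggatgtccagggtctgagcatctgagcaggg
A match is a description of the letters only, and the absence of a match at the other 7 genes says no more than that these letters are not in their windows. All 3 genes with a match responded to each LXR agonist at 48 h, as did genes without one.

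FGF21 was the gene with the widest span, from no counts at all to 645 in 1 library. At 24 h it had 0 counts in each of the 4 DMSO libraries and each of the 4 rosiglitazone libraries. With T0901317 it had 1 count in 1 library and 0 in the other 3, and with GW3965 it had 1 to 6 counts in each library, 15 in all. The GW3965 libraries were thus the group at 24 h in which FGF21 was seen in every library, at 0.109, 0.0274, 0.148 and 0.0603 CPM. Taken over the group, the FGF21 level was 4.34-fold higher than in DMSO when DMSO is set to the limit that 3 counts allow. The counting error of the 15 counts with GW3965 is not in that value. FGF21 fell below the count filter at 24 h and was not tested there in the fits of that time point. In edgeR without the filter, its difference between GW3965 and DMSO at 24 h did not pass (adjusted p = 0.0997).

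At 48 h FGF21 was detected in all 16 libraries, and it passed the count filter there through the DMSO and rosiglitazone libraries, since 2 of 4 libraries with GW3965 and 1 of 4 with T0901317 reached the level that the filter asks for in 4. The DMSO libraries held 2.17, 2.36, 4.44 and 2.88 CPM, from 74 to 182 counts, and the rosiglitazone libraries held 7.06, 11.3, 17.6 and 14.0 CPM, from 270 to 645 counts. The GW3965 libraries held 0.554, 0.217, 0.279 and 0.234 CPM and the T0901317 libraries 0.0579, 0.295, 0.174 and 0.158 CPM, from 8 to 25 and from 3 to 12 counts. All 4 rosiglitazone libraries lay above all DMSO libraries, and all 8 libraries with an LXR agonist lay below them. Against DMSO, the log2 fold change in the edgeR quasi-likelihood test with Benjamini-Hochberg adjustment over all genes was 2.04 with rosiglitazone (SE 0.26, adjusted p = 5.61e-06), -3.21 with GW3965 (SE 0.37, adjusted p = 7.32e-07) and -4.15 with T0901317 (SE 0.41, adjusted p = 1.17e-07). This is 4.11-fold higher with rosiglitazone, 9.22-fold lower with GW3965 and 17.8-fold lower with T0901317. Ordered from the most negative fold change, FGF21 stood 13th of 22470 genes with GW3965 and 8th with T0901317. The 3 drugs of a time point were compared with the same 4 DMSO libraries, so these values and all those below that set a drug against DMSO are not independent of each other.

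**Figure D1:**
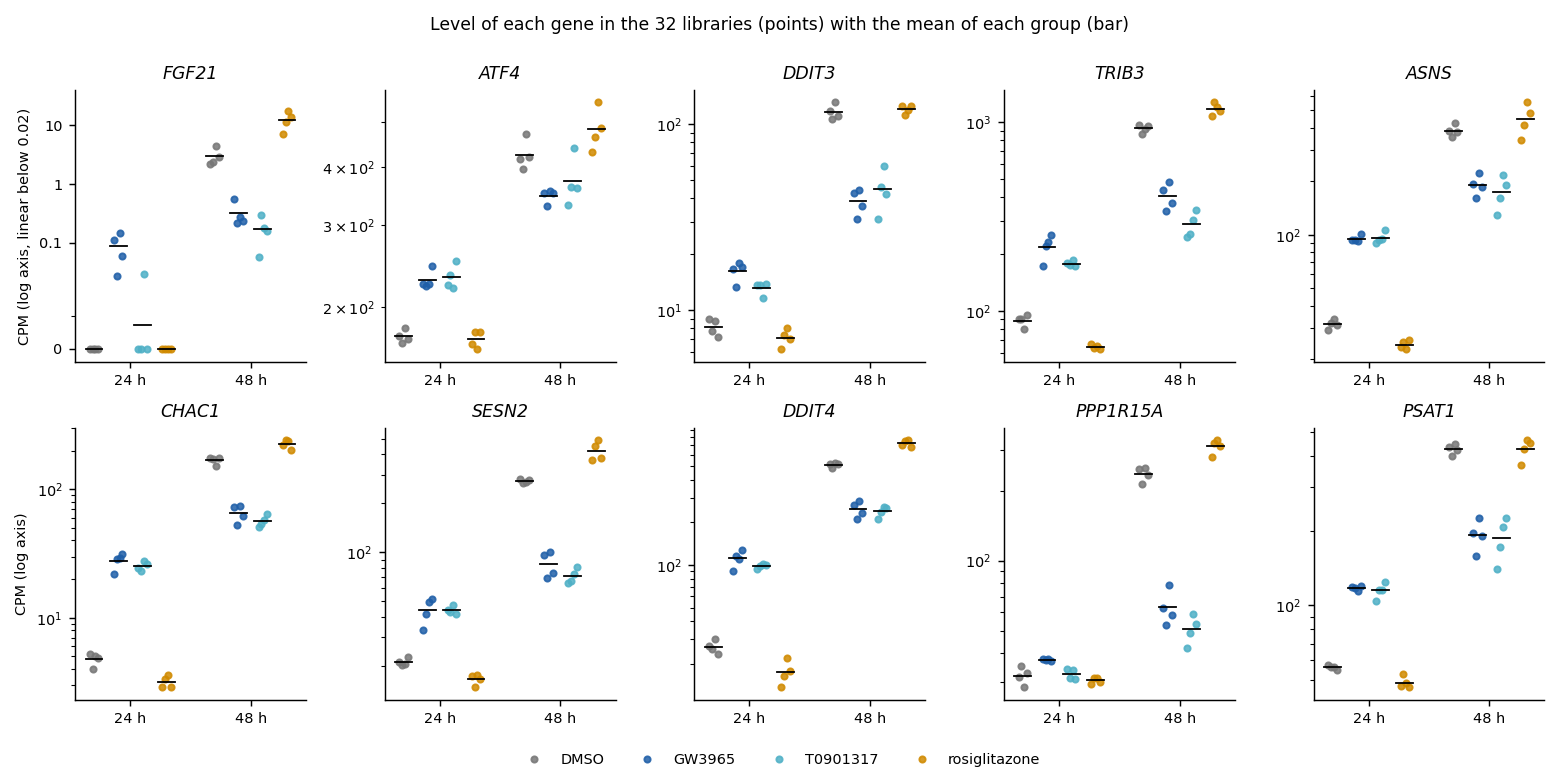
Level of each of the 10 genes in CPM on a log axis (for FGF21 linear below 0.02, so that 0 can be drawn) in the 32 libraries, with points for libraries and a bar for the mean of each group of 4. In each panel the means of DMSO and rosiglitazone are the lowest of all at 24 h and the highest of all at 48 h, and the means with GW3965 or T0901317 lie between them.

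The same shift from 24 to 48 h was measured in the vehicle for the other 9 genes. In DMSO all 9 passed the test in the upward direction in the fit of all 32 libraries, where a gene passes at an adjusted p under 0.01 and where 19.7% of 23140 genes passed upward. The rise ran from 2.47-fold for ATF4 to 35.1-fold for CHAC1. For all 9 the 4 libraries of 48 h lay above the 4 libraries of 24 h, as they did for 23.6% of all genes. FGF21 was 151.58-fold higher at 48 h in DMSO when the 24 h libraries are set to 3 counts over the group. It is left out of these counts because it passed the count filter of this fit only through 48 h libraries. The 24 and 48 h libraries are separate tables with separate DMSO groups, so a batch of the time point and the time in culture cannot be told apart. In bulk RNA, a change in the share of cells that express a gene and a change in RNA per cell cannot be told apart either.

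ATF4, the transcription factor at the centre of the pathway, is controlled mostly at translation, so its mRNA is one part of its regulation. It had the narrowest span of the 10 genes, 2.84-fold between the highest and the lowest group mean. At 24 h the DMSO libraries held 173, 167, 179.9 and 170.2 CPM, the GW3965 libraries 223, 222, 225 and 245 CPM and the T0901317 libraries 223, 234, 219.7 and 251 CPM. Both LXR agonists thus lay wholly above DMSO, by 0.40 and 0.43 on the log2 scale (SE 0.06 for each, adjusted p = 7.85e-05 and 7.48e-05), while rosiglitazone at 170.3 ± 7.52 CPM (mean ± SD, n = 4) overlapped DMSO at 173 ± 5.48 CPM. At 48 h the means were 347 ± 11.4 CPM with GW3965 and 374 ± 46.9 CPM with T0901317, beside 426 ± 32.02 CPM in the vehicle and 484 ± 50.4 CPM with rosiglitazone. The difference of GW3965 from DMSO, -0.30, passed the test (adjusted p = 0.00621) but lost the call in 7 of the 8 fits that left out 1 library of either group, all but the one without DMSO replicate 2, with adjusted p up to 0.0295. The difference of T0901317 from DMSO, -0.19, did not pass (adjusted p = 0.0816) except when T0901317 replicate 3, the highest of its group at 441 CPM, was left out (-0.28, adjusted p = 0.00682).

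DDIT3 (also called CHOP), TRIB3 and CHAC1 belong to the arm of the response that is linked to cell death under lasting stress. DDIT3 is a transcription factor, TRIB3 a pseudokinase induced by ATF4 and DDIT3 that feeds back on both, and CHAC1 an enzyme that degrades glutathione. CHAC1 had the largest changes of the 9 tested genes at 24 h with the LXR agonists: the DMSO libraries held 5.22, 3.99, 5.08 and 4.82 CPM, the GW3965 libraries 21.9, 28.5, 29.1 and 31.4 CPM, the T0901317 libraries 24.6, 23.1, 27.5 and 26.1 CPM and the rosiglitazone libraries 2.88, 3.35, 3.60 and 2.87 CPM. The 4 groups fell into 3 levels without overlap between them, with rosiglitazone lowest, DMSO next and the LXR agonists together on top. The rise over DMSO was 5.76-fold with GW3965 (log2 2.53, SE 0.11, adjusted p = 9.98e-12) and 5.29-fold with T0901317 (log2 2.40, SE 0.11, adjusted p = 3.14e-11), the 8th and 11th highest fold change of 21781 genes. With rosiglitazone CHAC1 fell by 0.61 on the log2 scale (adjusted p = 0.0022), a call that was lost without rosiglitazone replicate 1 or replicate 4 (adjusted p up to 0.0112).

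At 48 h the order of CHAC1 turned over. The DMSO libraries held 176, 172, 153 and 175 CPM, the GW3965 libraries 73.3, 52.5, 74.6 and 62.5 CPM, the T0901317 libraries 51.1, 53.8, 58.2 and 64.3 CPM and the rosiglitazone libraries 223, 240.5, 239 and 204 CPM. The LXR agonists now lay below all DMSO libraries and rosiglitazone above them, with log2 fold changes of -1.37, -1.57 and 0.40 (adjusted p = 2.06e-09, 3.80e-10 and 0.00264). The last of these calls was lost without DMSO replicate 3 or rosiglitazone replicate 2 (adjusted p up to 0.0114).

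TRIB3 followed the same turn. In the vehicle it was 88.8 ± 6.13 CPM at 24 h and 926 ± 44.5 CPM at 48 h, and with rosiglitazone 64.2 ± 1.73 and 1177 ± 81.7 CPM. With GW3965 it was 218 ± 33.4 and 408 ± 64.5 CPM, and with T0901317 178 ± 5.65 and 287 ± 44.8 CPM. GW3965 raised TRIB3 2.46-fold at 24 h and left it 2.27-fold lower than DMSO at 48 h. T0901317 raised it 2.00-fold at 24 h and left it 3.23-fold lower at 48 h (adjusted p of at most 2.58e-07 for the 4 comparisons). Rosiglitazone lowered it at 24 h by 0.47 on the log2 scale (adjusted p = 5.09e-04), and its log2 difference of 0.33 at 48 h did not pass (adjusted p = 0.0204) although no library overlapped.

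DDIT3 was 8.18 ± 0.862 CPM with DMSO at 24 h, 16.3 ± 2.07 with GW3965 and 13.2 ± 1.03 with T0901317, which is 1.98-fold and 1.61-fold higher and short of a 2-fold change with either agonist (adjusted p = 2.56e-06 and 4.68e-04). At 48 h it was 117 ± 10.7 CPM with DMSO, 38.6 ± 6.05 with GW3965 and 44.8 ± 11.9 with T0901317, 3.02-fold and 2.60-fold lower (adjusted p = 3.12e-08 and 2.00e-07). Rosiglitazone overlapped DMSO at both time points, with log2 differences of -0.21 (95% CI -0.43 to 0.02) at 24 h and 0.03 (95% CI -0.26 to 0.32) at 48 h.

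PPP1R15A (GADD34) is the stress-induced subunit of the phosphatase that removes phosphate from eIF2 and so ends the response. It was the exception at 24 h: the DMSO libraries held 31.4, 35.1, 28.5 and 32.8 CPM and the GW3965 libraries 37.6, 37.4, 37.6 and 36.8 CPM, a log2 difference of 0.22 that did not pass the test (adjusted p = 0.0378) although the libraries did not overlap. With T0901317 the difference was 0.03 (95% CI -0.09 to 0.16, adjusted p = 0.905). At 48 h PPP1R15A held 248, 214, 250.3 and 233 CPM with DMSO, 62.7, 52.6, 78.6 and 58.5 CPM with GW3965, 42.1, 48.7, 59.0 and 53.1 CPM with T0901317 and 279.6, 321, 329 and 312 CPM with rosiglitazone. After FGF21 it had the strongest decrease of the 10 genes with both LXR agonists, 3.75-fold with GW3965 (adjusted p = 1.15e-10) and 4.66-fold with T0901317 (adjusted p = 1.52e-11). The rise of 0.37 with rosiglitazone (adjusted p = 0.00953) lost its call in 7 of 8 fits with 1 library left out, all but the one without rosiglitazone replicate 1, with adjusted p up to 0.0337.

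ASNS makes asparagine from aspartate, and PSAT1 catalyses a step of serine synthesis. Both are standard ATF4 targets. ASNS held 29.1, 32.02, 33.7 and 31.1 CPM with DMSO at 24 h, 93.3, 93.7, 91.6 and 101 CPM with GW3965, 90.4, 93.6, 94.7 and 106 CPM with T0901317 and 23.5, 24.8, 22.7 and 25.6 CPM with rosiglitazone. It rose 3.01-fold with GW3965 and 3.06-fold with T0901317, with log2 fold changes of 1.59 and 1.61 (SE 0.06 and 0.06, adjusted p = 1.24e-12 and 1.61e-12), and it fell by 0.39 with rosiglitazone (adjusted p = 1.84e-04). At 48 h ASNS was 385 ± 28.5 CPM in the vehicle, 190.3 ± 24.7 and 174 ± 37.8 CPM with GW3965 and T0901317, and 448 ± 91.7 CPM with rosiglitazone. The log2 fold changes were -1.02, -1.15 and 0.20 (adjusted p = 1.01e-05, 2.98e-06 and 0.3).

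PSAT1 went from 56.1 ± 0.899 CPM with DMSO to 117 ± 2.55 with GW3965 and 115 ± 8.41 with T0901317 at 24 h, 2.09-fold and 2.05-fold higher. At 48 h it was 427 ± 20.1 CPM with DMSO, 192 ± 27.5 with GW3965 and 186 ± 37.2 with T0901317, 2.23-fold and 2.30-fold lower. Adjusted p was at most 2.31e-07 for these 4 comparisons. With rosiglitazone PSAT1 was 48.7 ± 2.77 CPM at 24 h, a difference of -0.21 just outside the threshold (adjusted p = 0.0109), and 426 ± 41.5 CPM at 48 h, where it overlapped DMSO.

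SESN2 and DDIT4 (REDD1) restrain mTORC1, the kinase complex that drives growth when amino acids are plentiful. DDIT4 held 26.7, 25.6, 30.0 and 23.5 CPM with DMSO at 24 h, 90.9, 117, 111 and 129 CPM with GW3965, 94.0, 98.4, 101 and 101 CPM with T0901317 and 13.6, 16.4, 21.8 and 17.8 CPM with rosiglitazone. It rose 4.22-fold and 3.73-fold with the LXR agonists and fell by 0.61 on the log2 scale with rosiglitazone, with no overlap of libraries in any of the 3 comparisons (adjusted p = 3.51e-10, 2.16e-09 and 9.32e-04). At 48 h it held 520.4, 484, 528 and 520.1 CPM with DMSO, 265, 213, 281 and 233 CPM with GW3965, 211, 238, 258 and 251 CPM with T0901317 and 706, 753, 759 and 679.8 CPM with rosiglitazone. All 3 directions had turned, to -1.05, -1.10 and 0.48 on the log2 scale (adjusted p = 4.48e-09, 2.75e-09 and 9.74e-05).

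SESN2 went from 21.1 ± 1.02 CPM at 24 h to 275 ± 7.24 CPM at 48 h in the vehicle, and from 16.5 ± 1.27 to 422 ± 57.3 CPM with rosiglitazone. With GW3965 it went from 43.9 ± 8.43 to 84.9 ± 15.4 CPM and with T0901317 from 43.9 ± 2.41 to 71.1 ± 7.47 CPM. It rose 2.08-fold and 2.09-fold with the LXR agonists at 24 h and fell 3.25-fold and 3.87-fold at 48 h (adjusted p of at most 2.13e-06 for the 4 comparisons). Rosiglitazone raised it 1.51-fold at 48 h (adjusted p = 2.72e-04), and its difference of -0.36 at 24 h did not pass (adjusted p = 0.0216).

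**Figure D2:**
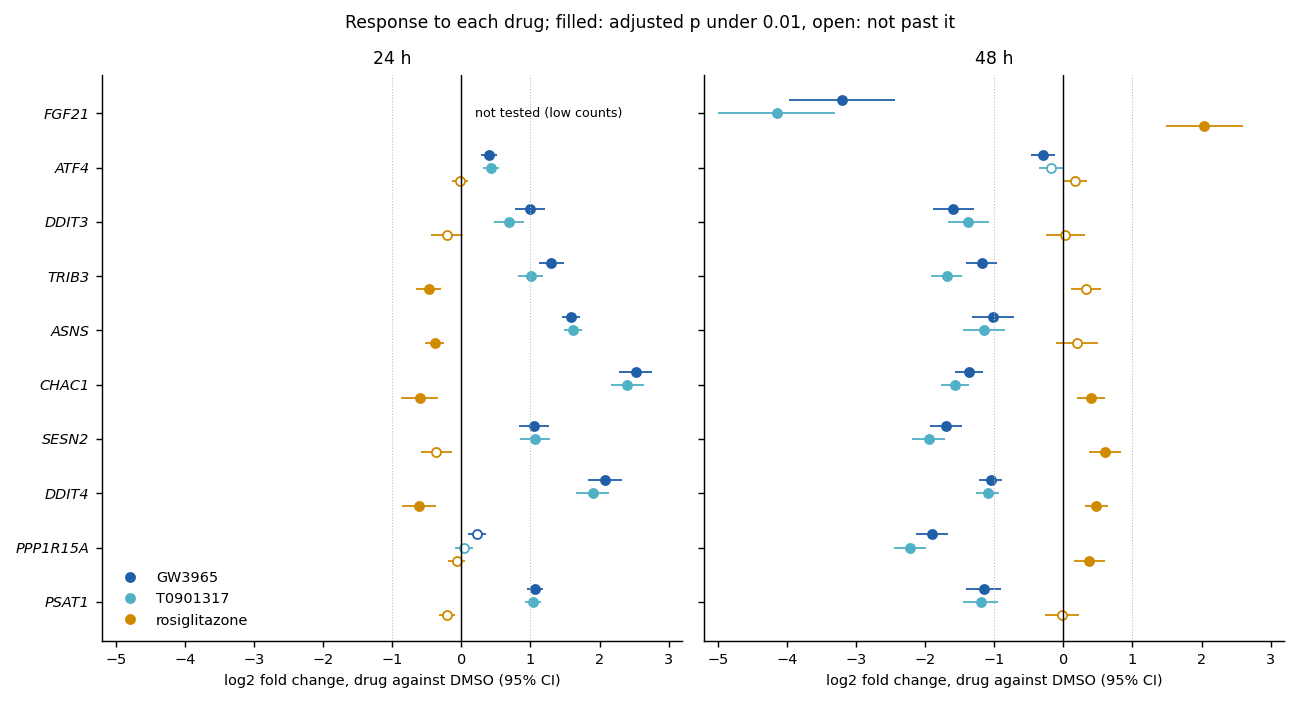
Log2 fold change of each drug against DMSO for the 10 genes at 24 h (left, where FGF21 was not tested) and 48 h (right), with 95% confidence intervals, filled points for an adjusted p under 0.01 and dotted lines at a 2-fold change. GW3965 and T0901317 lie to the right of 0 at 24 h and to the left of 0 at 48 h, and rosiglitazone runs from -0.61 to -0.02 at 24 h, then from -0.02 to 2.04 at 48 h.

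Counted over the list, 8 of the 9 genes tested at 24 h rose with GW3965, against 1.86% of all 21781 genes, and 6 of them by at least 2-fold, against 0.445%. The 4 libraries lay above DMSO for 9 of 9 genes, as they did for 5.05% of all genes. With T0901317 8 of 9 rose, against 1.33% of all genes, and 6 by at least 2-fold, against 0.271%. The libraries lay above DMSO for 8 of 9, as they did for 5.17% of all genes. With rosiglitazone 4 of 9 fell (CHAC1, DDIT4, TRIB3 and ASNS) and none rose, against 6.52% of genes that fell. None of the 4 reached 2-fold, against 1.4% of genes, and the libraries lay below DMSO for 6 of 9, against 12.4%. The median log2 fold change over the 9 genes was 1.06, 1.03 and -0.36 for the 3 drugs, beside medians of all genes of -0.0063, -0.0039 and -0.0189.

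At 48 h FGF21 and all 9 other genes fell with GW3965, and 8 of the 9 by at least 2-fold, against 17.5% and 2.54% of 22470 genes. With T0901317 FGF21 and 8 of the 9 fell, all 8 by at least 2-fold, against 16.1% and 2.59% of genes. The libraries of all 9 lay below DMSO without overlap with GW3965 and those of 8 with T0901317, as they did for 23.1% and 20.3% of all genes. FGF21 is kept out of the counts of 9 because it passed the filter through DMSO and rosiglitazone. With rosiglitazone SESN2, DDIT4, CHAC1 and PPP1R15A of the 9 rose, against 12.3% of genes, and none of the 9 by at least 2-fold, against 1.99%. The libraries of these genes and of TRIB3 lay above DMSO, as they did for 17.4% of all genes. FGF21 rose by more than 2-fold without overlap and is kept out here as well. With FGF21 counted, the number that rose was 3 instead of 5 when counts were scaled by library size alone. That scaling shifted the median of all genes with rosiglitazone from -0.01 to -0.19. The number was also 3 without DMSO replicate 3 or without rosiglitazone replicate 2. The TMM factors of the 48 h fit were lowest in the 4 rosiglitazone libraries, between 0.874 and 0.944, against 0.998 to 1.09 in the other 12.

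Genes that rose at 24 h and fell at 48 h with the same drug were uncommon. With GW3965, 102 of 21429 genes tested at both time points did so (0.476%), and 8 of the 9 stress response genes were among them, all but PPP1R15A. With T0901317 the count was 82 genes (0.383%), and 7 of the 9 were among them, all but PPP1R15A and ATF4. The reverse turn, a fall at 24 h and a rise at 48 h with rosiglitazone, was found for 6 genes (0.028%), of which 2 were DDIT4 and CHAC1. This count was made after the values of the 10 genes were known. The difference between the 2 responses was tested as an interaction in the fit of all 32 libraries. It was negative and passed for all 9 genes with GW3965, from -0.70 for ATF4 to -3.89 for CHAC1, where 11.7% of 23140 genes passed in that direction, and for all 9 with T0901317, from -0.61 to -3.97, where 9.95% did. With rosiglitazone it was positive and passed for DDIT4 (1.11), CHAC1 (1.03), SESN2 (0.97) and TRIB3 (0.81), where 1.38% of genes passed. FGF21 is not counted here because its fitted interaction rests on groups at 0 counts.

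Since the responses turn while the DMSO level itself moves, each treatment's own change from 24 to 48 h was also computed. This comparison was added after the values had been seen. Every one of the 9 genes rose in every treatment (background 19.7% of genes for DMSO, 16.2% for GW3965, 15.8% for T0901317 and 22.7% for rosiglitazone), and for each of them the libraries of 48 h lay above those of 24 h (20.2%, 19.2% and 23.7% of genes with the 3 drugs). With GW3965 the rise was 1.52-fold for ATF4 to 2.37-fold for CHAC1, and with T0901317 1.55-fold for PPP1R15A to 3.39-fold for DDIT3. With rosiglitazone it was 2.84-fold for ATF4 to 71.6-fold for CHAC1, beside 2.47- to 35.1-fold in DMSO. None of the 10 genes had a lower group mean at 48 h than at 24 h with an LXR agonist, and the negative responses at 48 h are relative to a DMSO level that had itself risen by more. FGF21 was 568.85-fold higher at 48 h with rosiglitazone when the 24 h group is set to 3 counts. With T0901317 it went from 1 to 31 counts over the group, a ratio of 20.9 after scaling (95% interval 3.48 to 850, counting error only).

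**Figure D3:**
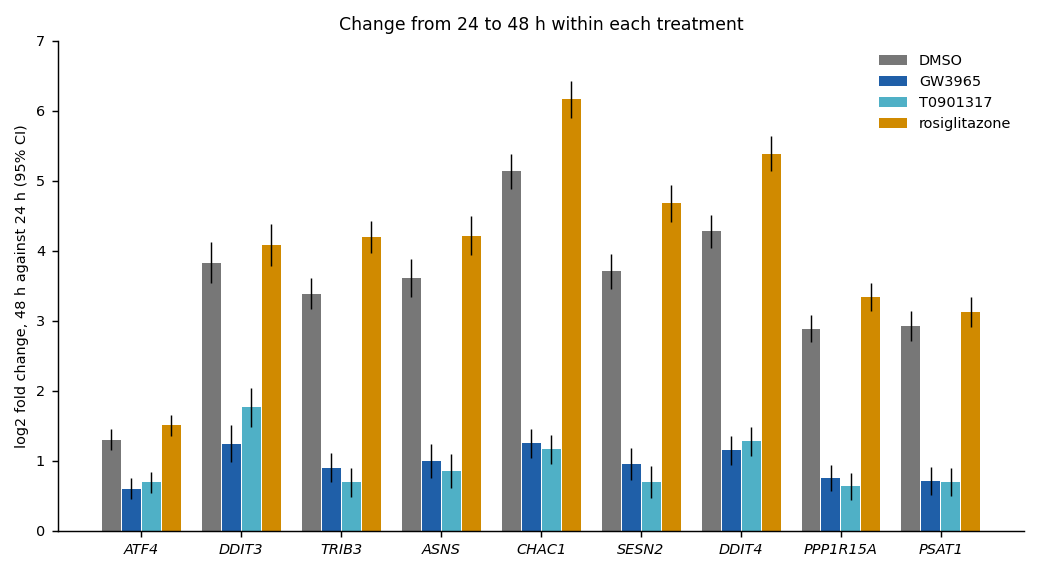
Log2 fold change from 24 to 48 h within each treatment, with 95% confidence intervals, for the 9 genes other than FGF21. Bars of DMSO and rosiglitazone stand at 1.30 to 6.16 and those of GW3965 and T0901317 at 0.60 to 1.76.

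The group means of each gene were also put in order. For FGF21 the 48 h groups with T0901317 and GW3965, at 0.171 ± 0.0970 and 0.321 ± 0.157 CPM, overlapped each other, and T0901317 at 48 h overlapped GW3965 at 24 h. DMSO at 48 h and rosiglitazone at 48 h, at 2.96 ± 1.03 and 12.5 ± 4.43 CPM, were each separate from the group below. For ATF4, DDIT3, TRIB3, CHAC1, PPP1R15A, ASNS, SESN2 and DDIT4 the lowest group was rosiglitazone at 24 h and the highest rosiglitazone at 48 h. The groups with an LXR agonist held the 4 places in between above DMSO of 24 h and below DMSO of 48 h. Rosiglitazone and DMSO overlapped at both time points for ATF4 and DDIT3, at 24 h for PPP1R15A and at 48 h for ASNS. PSAT1 differed only in that DMSO at 48 h was highest, at 427 CPM beside 426 CPM with rosiglitazone, with overlap. GW3965 and T0901317 of the same time point were neighbours in the order for all 10 genes, and their libraries overlapped in each of these pairs except that of PPP1R15A at 24 h.

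The 2 LXR agonists, which are different chemotypes given at the same dose, were set against each other directly. At 24 h none of the 9 genes passed in the edgeR test (background 0.79% of genes in either direction) or in DESeq2. Of the 9, 3 had an unadjusted p under 0.05, namely DDIT3, TRIB3 and PPP1R15A, all with the higher value for GW3965. The 95% intervals of the 9 log2 differences of GW3965 from T0901317 lay between -0.22 and 0.51, so differences within that range remain possible. Without GW3965 replicate 1, the lowest of its group for TRIB3, the TRIB3 difference passed (0.40, adjusted p = 4.37e-04, against 0.29 and adjusted p = 0.0973 with it). At 48 h TRIB3 passed alone of the 10, against 5.03% of genes, with libraries at 439, 339, 482 and 373 CPM for GW3965 and 246, 255, 303 and 342 CPM for T0901317. The log2 difference was 0.50 (SE 0.11, adjusted p = 0.0029), the lowest GW3965 library lay below the highest T0901317 library, and the call was lost without GW3965 replicate 1 or 3 or T0901317 replicate 2 (adjusted p up to 0.0151). The FGF21 difference of 0.95 had a 95% interval of -0.22 to 2.11.

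Rosiglitazone differed from both LXR agonists, and in opposite directions at the 2 time points. At 24 h all 9 genes were lower with rosiglitazone than with GW3965, with log2 differences from -0.29 (PPP1R15A) to -3.13 (CHAC1), against 6.09% of genes, and 8 of 9 were lower than with T0901317, against 8.13%, all but PPP1R15A. At 48 h all 9 were higher with rosiglitazone than with GW3965, with log2 differences from 0.46 (ATF4) to 2.30 (SESN2), against 22.4% of genes, and all 9 were higher than with T0901317, by 0.35 to 2.59 (PPP1R15A), against 23.7%. FGF21 was 37.9-fold and 73.2-fold higher than with GW3965 and T0901317. These folds are imprecise, since they rest on 8 to 25 counts per library with GW3965 and 3 to 12 with T0901317. FGF21 also passed the count filter through the DMSO and rosiglitazone libraries, where it was high. The ATF4 difference between rosiglitazone and T0901317 did not pass with library size scaling (0.13, adjusted p = 0.211).

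Further genes of the pathway were described as lists written from general knowledge, with earlier results of these data known. Each list is given by how many genes passed in each direction beside the median of the list. These counts describe the listed genes and are not independent support. The shares of all genes that rose and that fell are the background of these counts. At 48 h they were 16.1% and 17.5% with GW3965, 14.0% and 16.1% with T0901317 and 12.3% and 13.1% with rosiglitazone. At 24 h 1.86% rose with GW3965, 1.33% rose and 0.119% fell with T0901317, and 5.81% rose and 6.52% fell with rosiglitazone. In DMSO 19.7% rose and 18.9% fell from 24 to 48 h. Of 16 genes for amino acid synthesis and transport, 12 rose at 24 h with GW3965 and 12 with T0901317, and none fell (medians 0.55 and 0.47 on the log2 scale, beside -0.0063 and -0.0039 for all genes). SLC6A9, a glycine transporter, led with 2.50 and 1.98, followed by the neutral amino acid transporter SLC1A4 with 1.07 and 1.19. At 48 h 13 fell with GW3965 and 14 with T0901317, with CTH, an enzyme of cysteine synthesis, at -2.15 and -1.81, and none rose. With rosiglitazone 1 rose and 2 fell at 24 h, and 7 rose at 48 h, a count that came to 3 with library size scaling. In DMSO all 16 rose from 24 to 48 h, SLC6A9 by 5.97.

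A list of 12 cytosolic tRNA synthetases, which load amino acids onto tRNAs, behaved alike with smaller changes. Synthetases outside this list were not examined. At 24 h 9 rose with GW3965 and 7 with T0901317, with GARS at 0.58 and 0.50. At 48 h 12 fell with GW3965 and 11 with T0901317, with GARS at -1.11 and -1.08 and WARS at -1.10 and -1.29. All 12 rose in DMSO from 24 to 48 h, with a median of 1.23. With rosiglitazone none passed at 24 h in the edgeR test and WARS alone at 48 h (0.50), which did not pass with library size scaling.

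Of 15 tested genes listed as other effectors of the response, 8 rose with GW3965 at 24 h, and 7 rose and 1 fell with T0901317. ADM2, a secreted peptide, stood at 1.88 and 1.87, and the lipoprotein receptor VLDLR at 1.62 with GW3965. At 48 h 11 fell and none rose with GW3965, and 13 fell and 1 rose with T0901317. The decreases were led by the transcription factor ATF3 at -3.14 and -3.26, the hormone GDF15 at -2.53 and -2.51 and the thioredoxin inhibitor TXNIP at -2.48 and -2.84. Of these, ATF3 had risen at 24 h (1.10 with GW3965 and 0.79 with T0901317). GDF15 had passed with neither agonist at 24 h (0.06 and 0.27). TXNIP had not passed with GW3965 at 24 h (0.11) and had fallen with T0901317 (-0.45). With rosiglitazone 4 rose and 3 fell at 24 h, and 5 rose and 1 fell at 48 h. The genes of this list that rose most with rosiglitazone were VLDLR (1.89 at 24 h and 1.21 at 48 h) and the autophagy receptor SQSTM1 (1.001 and 1.84), while ADM2 stood at -1.07 at 24 h.

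The RNA of genes upstream of ATF4 moved less. Phosphorylation of eIF2 and the activity of its kinases were not measured. Of 12 genes for eIF2 kinases and eIF2 control, none passed at 24 h with either LXR agonist in the edgeR test, and the log2 fold changes stayed between -0.25 and 0.25. At 48 h 4 fell with GW3965, and 3 rose and 6 fell with T0901317. The largest decrease was that of PPP1R15B, the constitutive counterpart of PPP1R15A, at -0.98 and -0.93, followed by EIF2S1, the alpha subunit of eIF2, at -0.80 and -0.77. With rosiglitazone 1 rose and 1 fell at 24 h and 3 rose and 2 fell at 48 h, and PPP1R15B was higher at both time points, by 0.26 and 0.45.

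The ATF6 and XBP1 branch, which answers misfolded protein in the endoplasmic reticulum without eIF2, moved in both directions at 48 h. Of its 17 genes, 5 rose at 24 h with GW3965 and 3 with T0901317, with the membrane protein HERPUD1 at 0.54 and 0.48. At 48 h 9 rose and 5 fell with GW3965 and 9 rose and 4 fell with T0901317, with medians of 0.32 and 0.30, and among those that rose were SDF2L1 (1.64 and 1.15) and the chaperone CALR (1.31 and 1.21). ERN1, the sensor that splices XBP1, fell by 1.68 and 1.79 on the log2 scale. In DMSO 6 of the 17 rose and 9 fell from 24 to 48 h. With rosiglitazone the chaperone HSPA5 rose (0.31) and HERPUD1 fell at 24 h, and HSPA5 rose alone at 48 h (0.56).

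**Figure D4:**
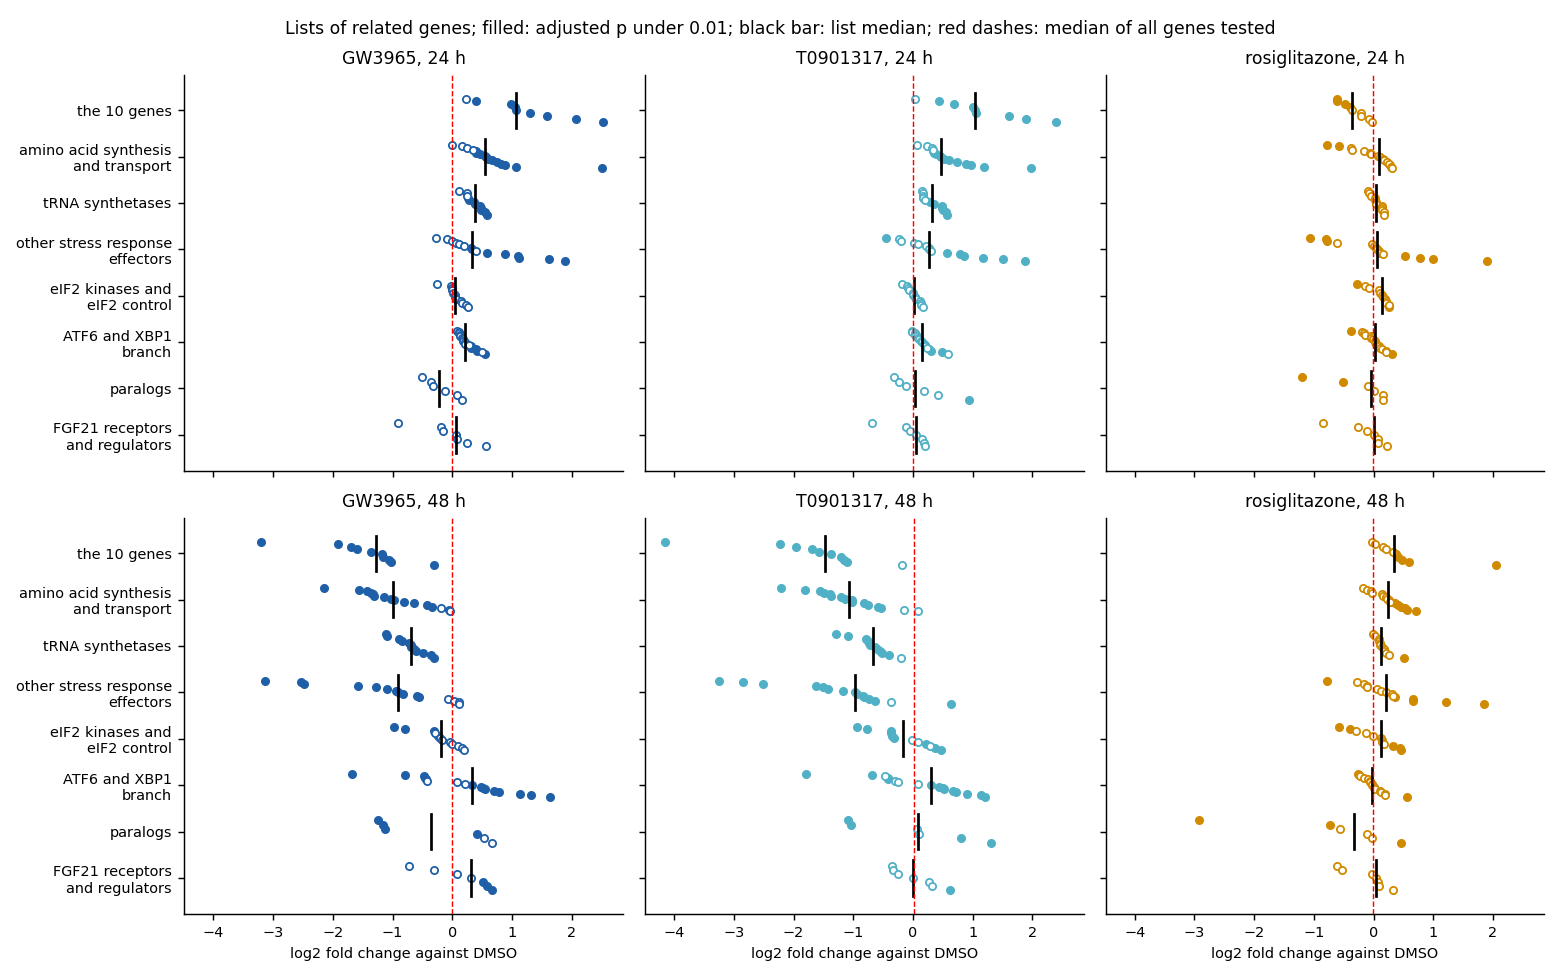
Log2 fold change against DMSO of each tested gene in the 10-gene set and 7 lists, by drug and time point, with filled points for an adjusted p under 0.01, a black bar at the median of the list and red dashes at the median of all genes. With the LXR agonists the medians of the 10-gene set (without FGF21 at 24 h) and of the lists for amino acids, tRNA synthetases and other effectors lie to the right of 0 at 24 h and to the left at 48 h, and the ATF6 and XBP1 branch lies on both sides at 48 h.

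Among 6 tested paralogs of the 10 genes, none passed with GW3965 at 24 h and FGF19 alone with T0901317 (0.93). FGF19 is a secreted hormone of the same subfamily as FGF21, released by the ileum in response to bile acids. Against DMSO at 48 h it stood at -1.13 with GW3965 (adjusted p = 2.32e-04), at 0.11 with T0901317 (adjusted p = 0.713) and at -2.92 with rosiglitazone (adjusted p = 1.41e-08), so that rosiglitazone lowered FGF19 where it raised FGF21. CHAC2 and TRIB1 fell with both LXR agonists at 48 h, by 1.24 and 1.03 and by 1.17 and 1.09, and TRIB2 was higher with T0901317 (1.30). SESN1 was higher with both at 48 h (0.41 and 0.80) and fell with rosiglitazone by 0.52 at 24 h and by 0.74 at 48 h. Of 7 tested genes for FGF21 receptors and regulators, none passed at 24 h with any drug, 3 rose with GW3965 at 48 h, namely MLXIPL (0.67), PPARA (0.58) and FGFR4 (0.51), PPARA alone rose with T0901317 (0.62), and none passed with rosiglitazone at 48 h.

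The genes whose 8 group means were most like those of FGF21 were in none of the lists above. By Pearson's r over the 8 group means of log2 CPM among 5477 genes that varied, the first was a gene with a clone-based name (0.995), followed by RIPK2 (0.994), TMEM88 (0.993), UNC5B (0.992) and NFIL3 (0.992). On the scale of log2 (CPM + 1), among the 4020 genes ranked on that scale, they were DUSP1, RND1, RFFL, LAMB3 and FBXO42, and none of the 5 was shared. Of the 9 stress response genes, PPP1R15A was closest with an r of 0.988, the 14th of 5477 genes, then SESN2 with 0.966, the 178th. The others lay between 0.868 and 0.940, at ranks 417 to 867. These values rest on 8 points that share libraries and the split between time points, and carry no test. The FGF21 points of DMSO, rosiglitazone and T0901317 at 24 h come from 0, 0 and 1 counts. The constant added before taking logs largely sets those points.

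Within the groups of 48 h, the same library was often lowest or highest for most genes. In the GW3965 group of 48 h replicate 2 was the lowest library for all 10 genes and replicate 3 the highest for 9 of them, and in the T0901317 group of 48 h replicate 1 was the lowest for all 10. In DMSO at 48 h replicate 2 was the lowest for 8 genes and replicate 3 the highest for 7. With rosiglitazone at 48 h replicate 1 was the lowest for 7 and replicate 3 the highest for 7. At 24 h, over the 9 genes other than FGF21, GW3965 replicate 4 was the highest for 7 and replicate 1 the lowest for 4. Replicate 3 of rosiglitazone at 24 h was the highest for 5. No library of DMSO or T0901317 at 24 h was highest or lowest for more than 4. The total counts of the 2 libraries that were lowest for all 10 genes were 36537256, the smallest of its group, and 49912230, the largest of its group. The 10 genes are therefore not 10 independent readings of a condition, and the comparisons above rest on 4 libraries per group.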

How the data were processed

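Per the labels, poly(A) RNA was sequenced as Nextera paired-end libraries, 4 for each of the 8 groups. The values used are counts per gene as deposited by the authors, 1 table for each time point, with 51838 rows. The submitters' processing notes name TopHat, Cufflinks and hg19, while the sources used here give no counting program, annotation or strand setting. Antisense or overlapping genes are therefore not told apart. Counts of 2 were about as frequent as counts of 1 (medians of 1556.5 and 1566.5 genes per library). The deposited ChIP-seq peak lists were not used here.

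Counts were tested with edgeR 4.0.16 (quasi-likelihood test, R 4.3.3) after filterByExpr and TMM scaling, with Benjamini-Hochberg adjustment over all genes tested. Each time point was fitted with its 16 libraries (21781 and 22470 genes tested), and all 32 libraries (23140 genes) gave the differences between responses and the changes over time. The threshold for passing was an adjusted p below 0.01. Where a 2-fold change was required too, it is named, as the authors did with DESeq. The biological coefficient of variation was 0.0981 at 24 h and 0.101 at 48 h. On simulated counts with 200 changed genes the test recovered 91.7% of genes changed by 1 and 100% of those changed by 2 on the log2 scale for GW3965 against DMSO at 24 h. For the difference between the GW3965 responses it recovered 77.4% and 98.1%, with 4 false calls. The changed genes had a mean of at least 1 CPM, so recovery at lower levels was not measured. Intervals are 95% intervals. The floor of FGF21 is 3 counts over a group and covers the counting error of that group only, not that of the group set against it.

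The 10 genes and the lists were chosen with earlier results of these data known. All 10 genes are named. From each list the text names genes among the 3 with the largest changes past the threshold in a comparison with DMSO. Their values in other comparisons, and EIF2S1, HSPA5, SESN1 and WARS where outside that rule, were added after the values were seen. List counts use the same tests, and the genes most like FGF21 are the 5 with the highest r over group means. DMSO was the background of every drug comparison. Alternatives were DESeq2 1.42.0, DESeq2's size factors or library size as scaling, no count filter, fits of 2 groups alone, a replicate block and leaving out each library. Within a group, replicate pairs differed by more than sampling noise (chi-square per gene of 3.97 to 85.6), so each library was counted once. The largest value was that of replicates 1 and 3 of GW3965 at 24 h. Replicate 1 of that group also stood at 37.1 and 77.3 from replicates 2 and 4, while pairs without it ran from 5.88 to 13.2. Libraries with the same replicate number did not deviate together (median correlation of deviations 0.01 at both time points).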

Additional observations from a re-analysis of the deposited data

Results flagged for a closer look

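For 9 genes the response to GW3965 at 48 h differed from that at 24 h by a test of the difference itself (edgeR, log2 scale, adjusted p at most 2.51e-06). The differences were -0.70 for ATF4, -2.58 for DDIT3, -2.48 for TRIB3, -3.89 for CHAC1, -2.13 for PPP1R15A, -2.61 for ASNS, -2.22 for PSAT1, -2.75 for SESN2 and -3.13 for DDIT4. With T0901317 they were -0.61, -2.06, -2.69, -3.97, -2.25, -2.76, -2.23, -3.01 and -3.00 in the same order of genes (adjusted p at most 2.36e-05). With rosiglitazone the difference was positive for TRIB3 (0.81), CHAC1 (1.03), SESN2 (0.97) and DDIT4 (1.11), with adjusted p from 1.29e-05 to 4.33e-04. FGF21 changed with GW3965 at 48 h by -3.21 on the log2 scale. At 24 h all 4 GW3965 libraries held counts and no DMSO library did. The fitted difference between the FGF21 responses rests on DMSO libraries at 0 counts and is not given as a result.

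Of the 78 groups of 4 libraries examined for 1 library far from the others, 5 held one, where chance gives about 1 in 20. They were T0901317 at 24 h replicate 3 for FGF21 (0.0288 CPM, its single count), GW3965 at 24 h replicate 4 for ATF4 (245.0 CPM), GW3965 at 48 h replicate 2 for ATF4 (330.0 CPM), T0901317 at 24 h replicate 3 for DDIT3 (11.7 CPM) and DMSO at 48 h replicate 3 for CHAC1 (153 CPM). A group with a single count is always flagged by this rule, so the FGF21 entry says nothing about that library. The chance rate does not apply to it.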

How the results depend on the processing

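No comparison that passed changed its direction under any alternative. Counts of the 10 genes that passed stayed within 1.5 times of the reported count except as follows. With a 2-fold change required besides, the count was 0 for rosiglitazone at 24 h, 1 for rosiglitazone at 48 h, 0 for GW3965 against T0901317 at 48 h, 2 for the rosiglitazone difference between time points, and 5 and 4 for the changes from 24 to 48 h within GW3965 and T0901317. With library size scaling 3 genes passed with rosiglitazone at 48 h, where CHAC1 (0.22, adjusted p = 0.0618) and PPP1R15A (0.19, adjusted p = 0.166) were lost. With 1 library left out, the count ran from 3 to 5 for rosiglitazone at 24 h and at 48 h, from 0 to 1 for GW3965 against T0901317 at each time point, from 9 to 10 for GW3965 and T0901317 at 48 h, and from 4 to 5 for the rosiglitazone difference between time points. With FGF21 counted, it ran from 9 to 10 for the changes over time within GW3965 and T0901317. Over single genes and comparisons, DESeq2 kept the call in 180 of 184 and added 4 calls, among them PSAT1 with rosiglitazone at 24 h and TRIB3 with rosiglitazone at 48 h. Leaving out 1 library kept 1675 of 1712 calls, lost 33 and added 4. Size factors of DESeq2 in edgeR changed none of 184, no count filter changed 1, and fits of 2 groups alone kept 110 of 114. A replicate block, which the numbers do not warrant as paired cultures, changed 1 call, adding ASNS to the rosiglitazone difference between time points (0.58, adjusted p = 0.0038), so that 5 genes passed instead of 4. FGF21 at 24 h rested on 15 counts with GW3965, and without the count filter its adjusted p there was 0.0997 (edgeR).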
